A study of Bos taurus with 8 samples.

Results

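The Hedgehog signaling pathway was described through 10 named genes, IHH, PTCH1, HHIP, GAS1, BOC, CDON, SMO, GLI1, GLI2 and GLI3, in stem-like cell lines made from bovine embryos (eSLCs) and in somatic cells (SCs). A probe was assigned to a gene when its RefSeq accession, read without the version, belonged to that gene. By this rule 8 of the 10 genes had at least 1 probe, out of 12603 genes matched on the array, and they held 22 probes in all. No probe was matched to GLI3 or GAS1, which were not analysed here. All of these 8 genes entered the tests.

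RNA of 6 eSLC lines and of SCs at passages 5 and 10 (SC P5 and SC P10) was hybridized with 1 dye to 8 Agilent bovine arrays, 1 array per sample. The lines I2 (passage 35) and I9 (passage 30) came from embryos made by in vitro production (IVP-eSLCs), N2 (passage 36) and N7 (passage 30) from somatic cell nuclear transfer embryos (NT-eSLCs), and P1 (passage 31) and P4 (passage 36) from parthenogenetic embryos (PA-eSLCs), so that each condition had 2 arrays. The eSLCs grew as colonies on inactivated murine STO feeder cells in a serum-free medium with 3 kinase inhibitors (PD184352, SU5402 and CHIR99021), whereas the SCs grew in medium with serum and without feeder. Cell type and culture therefore cannot be told apart in any comparison with SCs. The cells were of Hanwoo cattle, and the donor cells of the nuclear transfer came from ear skin.

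Hedgehog ligands bind the membrane receptor Patched, and this frees Smoothened from repression. Smoothened then moves into the primary cilium, and the GLI transcription factors act as activators. GLI1, PTCH1 and HHIP are themselves transcribed in response to the signal in many tissues, which makes them common readouts of the pathway. In embryos and gut, Indian hedgehog is known as a ligand of endodermal epithelium, and Hedgehog responses are often read in mesenchyme next to it.

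The values below are background-subtracted signals scaled so that the 75th percentile of each array is 1000, and are called normalized signals. A common floor of 13.3 was applied before taking log2. The scanner software flagged 71.2% to 76.7% of an array's spots as well above background and none as saturated. The 2 lines of an origin came from different blastocysts, whereas it is not stated whether the 2 SC passages were separate cultures, so p-values against SCs measure only the spread between these samples. In these bulk samples, fewer cells of a type and less RNA per cell cannot be told apart. The cell types were checked against marker lists. Of 17 fibroblast markers tested, 15 were lower in eSLCs (median log2 difference -5.87), with summed signals of 6975 to 12603 in the 6 lines and 761239 to 904362 in the SC arrays. Of 14 trophectoderm markers tested, 11 were higher in eSLCs (median 7.65), among them CDX2, whose probe was not well above background in either SC array. What part these marker differences have in the results below was not tested.

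Among the 8 genes measured, the receptor-side genes SMO and BOC and the transcription factor GLI1 were lower in eSLCs than in SCs, and none was called higher. A call required an adjusted p under 0.05 in limma and a difference of at least 2-fold. Calls toward lower signal covered 15.7% of the 10950 genes tested and calls toward higher signal 19.7%, against 3 and 0 of the 8 genes. The median log2 difference was -0.63 over the 8 genes and 0.23 over all genes tested. For 4 of the 8 genes all 6 lines lay below both SC arrays and for 1 all lay above (23.6% and 34% of the genes tested, on signals raised to the floor). By the absent/present and 2-fold criterion alone, without a test, SMO, BOC and GLI1 were lower (17.4% of all genes were) and IHH was higher (22.7% of all genes were). The normalized signals of all 8 genes are plotted by array.

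**Figure D1:**
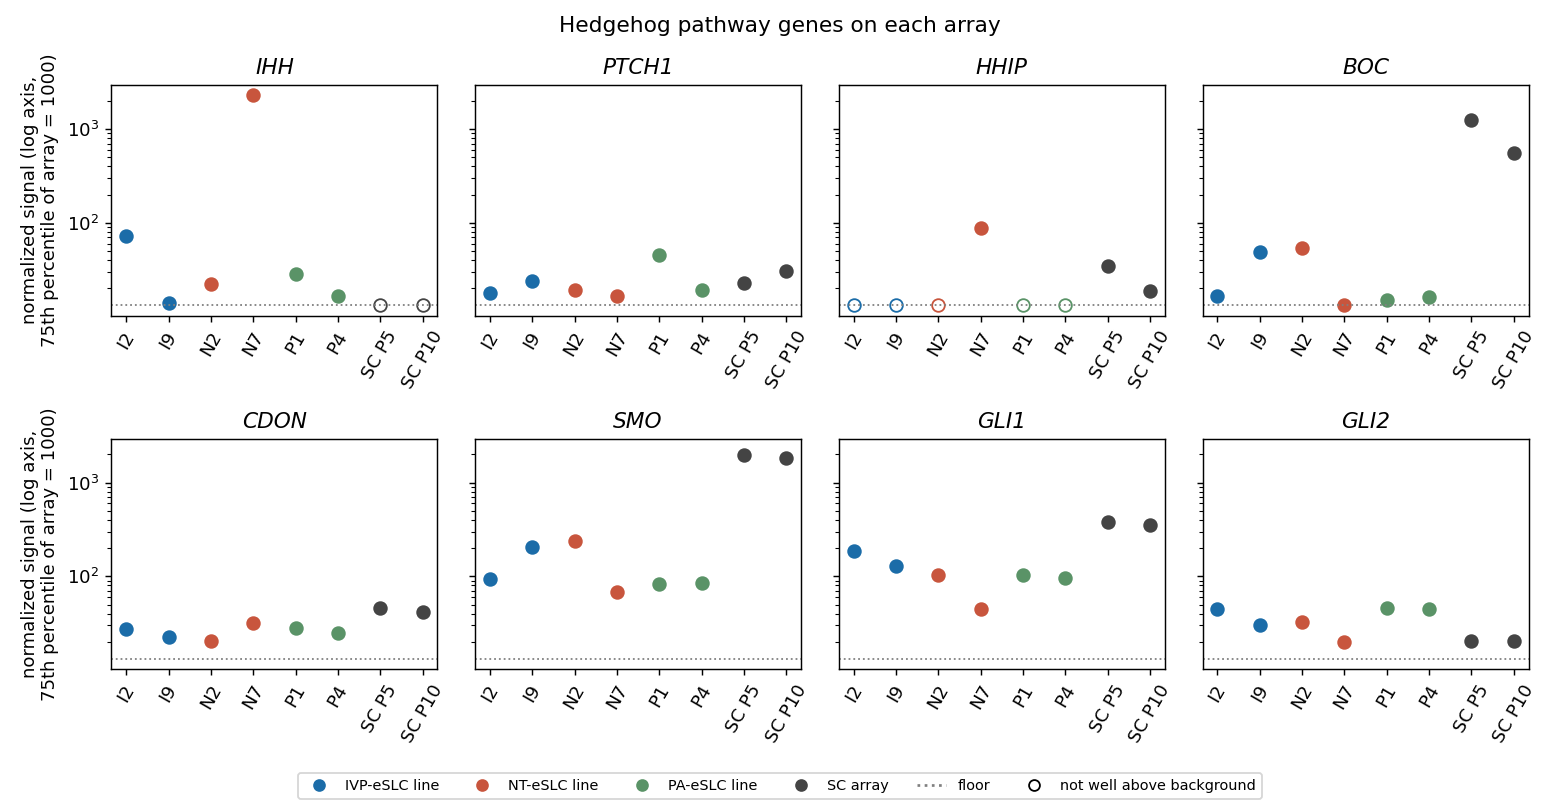
Normalized signal (log axis, 75th percentile of each array = 1000) of the tested probe of each gene on the 8 arrays, with values under the floor of 13.3 (dotted) drawn at it and open symbols for spots not well above background. SMO and BOC lie far above the 6 lines in both SC arrays, and IHH reaches 2278 in N7 alone.

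IHH, the gene of Indian hedgehog and the only ligand with a matched probe, was unevenly distributed among the lines. Its tested probe (NM_001076870) gave normalized signals of 72.0 in I2, 14.0 in I9, 22.4 in N2, 2278 in N7, 28.3 in P1 and 16.4 in P4. It gave 0.935 in SC P5 and 5.96 in SC P10, where it was not well above background. All 6 lines therefore lay above both SC arrays, N7 far above the other 5 lines, which stayed within 72.0.

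The detection limit of the SC arrays, the dimmest signal well above background on them, was 8.32 on average and lies under the common floor of 13.3. Against this limit IHH was at least 6.46-fold higher in the mean of the 6 lines, and at least 3.05-fold higher in the mean of the 5 lines without N7. Against the floor, the fitted log2 difference was 2.02 with a standard error of 1.69 and did not pass the test (limma adjusted p = 0.363, 95% interval -2.12 to 6.15). Without N7, where N2 alone stood for the NT-eSLCs, the difference was 0.91, and without N2, where N7 alone did, it was 3.13. Both SC arrays stood at the floor and IHH entered the tests through the lines alone, so these fits measure the spread of the lines only. The other IHH probe gave 24.7 to 48.8 in the 6 lines, with 46.7 in N7, and 40.3 and 25.7 in the SC arrays. That probe therefore did not show the high signal of N7, and its log2 difference was 0.19 (adjusted p = 0.631).

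PTCH1, the receptor that holds Smoothened inactive and a target of the pathway, was near the floor on most arrays. Its tested probe (NM_001205879) gave 17.9 in I2, 23.7 in I9, 19.4 in N2, 16.5 in N7, 45.7 in P1 and 19.1 in P4, with 23.0 at SC P5 and 30.7 at SC P10. P1 was the highest of all arrays, 4 lines lay below both SC arrays, and the groups overlapped. The log2 difference of PTCH1 was -0.26 (SE 0.36, limma adjusted p = 0.574, 95% interval -1.14 to 0.62). Only 1 of its other 4 probes was bright enough to be tested, with a difference of -0.38 (adjusted p = 0.317), and on that probe P1 gave 13.1.

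HHIP encodes a membrane protein that binds Hedgehog ligands and keeps them from Patched. Its tested probe (NM_001099114) was well above background in N7, with 87.0, in SC P5, with 34.4, and in SC P10, with 18.9, and in none of the other 5 lines, where signals did not exceed 1.40. N7 was thus the highest array and the groups overlapped. The log2 difference of eSLCs from SCs was -0.49 (SE 0.69, limma adjusted p = 0.583), on values of which 5 stood at the floor. Without N7 it was -0.94, under 2-fold, with an adjusted p of 0.0409.

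Of the other 2 HHIP probes, 1 was well above background in N7 (38.6) and SC P5 (12.4) only. The remaining probe gave 73.5 in P1, 21.1 in N7 and at most 15.2 in the other lines, against 14.4 and 12.7 in the SC arrays. Its log2 difference was 0.50, the opposite sign of the tested probe (adjusted p = 0.537). Among probes well above background, P1 was therefore highest on 1 probe of PTCH1 and 1 of HHIP, and N7 on the other 2 HHIP probes.

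BOC, an immunoglobulin-family coreceptor that presents Hedgehog ligands to Patched, had the largest difference of the 8 genes. Normalized signals (NM_001206219) were 16.4 in I2, 49.3 in I9, 53.5 in N2, 10.7 in N7, 15.2 in P1 and 16.3 in P4. They were 1248 in SC P5 and 561 in SC P10, so that the lower SC array was still 10.5 times the highest line. BOC was 36.6-fold lower in eSLCs (log2 difference -5.19, SE 0.68, limma adjusted p = 0.00181), with N7 raised to the floor. A further BOC probe, well above background in I9 and N2 of the 6 lines (18.0 and 21.9) and at 279 and 132 in the SC arrays, had a difference of -3.66 (adjusted p = 5.5e-04). The remaining BOC probe was well above background only in P1, at 20.0, and could not be tested. Within slide 1 the BOC difference was -5.82 and within slide 2 -4.57, where the smaller fits no longer passed (adjusted p = 0.0618 and 0.0788).

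CDON, the related coreceptor of the same family, was close to the floor but steady. Its tested probe (NM_001192870) gave 27.4 in I2, 22.8 in I9, 20.3 in N2, 31.5 in N7, 28.4 in P1 and 25.0 in P4, with 45.8 at SC P5 and 41.7 at SC P10. All 6 lines lay below both SC arrays. The log2 difference of -0.77 (SE 0.22) had a limma adjusted p of 0.0300 but was under 2-fold, so CDON was not called. When single arrays were left out, its adjusted p ranged from 0.0100 to 0.161. The other CDON probe was well above background in both SC arrays (13.1 and 30.4) and in no line.

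SMO, the membrane protein that passes the signal from Patched to the GLI factors, was clearly lower in every line. Its tested probe (NM_001192220) gave 93.4 in I2, 204 in I9, 238 in N2, 67.5 in N7, 82.1 in P1 and 84.7 in P4. It gave 1961 in SC P5 and 1840 in SC P10. The SC arrays were close to each other and the lower of them was 7.74 times the highest line, while the lines themselves spread 3.52-fold, with I9 and N2 above the other 4. SMO was 16.8-fold lower in eSLCs (log2 difference -4.07, SE 0.52, limma adjusted p = 0.00171, 95% interval -5.35 to -2.79).

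The other SMO probe gave 35.1 in I2, 59.6 in I9, 35.9 in N2, 16.6 in N7, 34.1 in P1 and 18.2 in P4, against 149 and 167 in the SC arrays. These groups did not overlap either, and the difference of -2.38 was called (adjusted p = 0.00512). The size of the SMO difference thus depended on the probe, and its direction did not. Within slide 1 the tested probe had a difference of -4.17 and within slide 2 of -3.96 (adjusted p = 0.0722 and 0.0777).

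GLI1, the GLI factor that is itself induced by the pathway, was lower in eSLCs on 1 of its 3 probes. The tested probe (NM_001099000) gave 187 in I2, 128 in I9, 103 in N2, 45.1 in N7, 104 in P1 and 95.9 in P4, with 384 at SC P5 and 349 at SC P10. The lines lay below both SC arrays, with N7 lowest. The log2 difference was -1.85 (SE 0.34, 3.61-fold, limma adjusted p = 0.00657). It stayed near this size but no longer passed without SC P5 (-1.78, adjusted p = 0.0781) or without SC P10 (-1.92, adjusted p = 0.0633), and within slide 1 (-1.91, adjusted p = 0.293), whereas it passed within slide 2 (-1.80, adjusted p = 0.0171). Within a slide the SCs were a single array, which is then assumed to vary like the lines of that slide.

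The other 2 GLI1 probes were well above background on all 8 arrays and were not called, at 0.11 (adjusted p = 0.782) and -0.29 (adjusted p = 0.381). On the first of these the 6 lines ranged from 27.0 to 56.0 and the SC arrays gave 36.7 and 28.9, so the groups overlapped. The lower GLI1 signal of eSLCs was therefore a result of the brightest probe alone. In the authors' normalized table the same brightest probe had a difference of the opposite sign, 0.88 (adjusted p = 0.324).

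GLI2, the GLI factor that acts as the main activator early in the response, was the only one of the 3 downstream genes with higher signals in most lines. Its tested probe (NM_001192250) gave 45.0 in I2, 30.2 in I9, 32.8 in N2, 19.9 in N7, 45.8 in P1 and 44.8 in P4, against 20.6 and 20.5 in the SC arrays. N7 lay just below both SC arrays and the other 5 lines above them. The log2 difference of 0.77 (SE 0.26) narrowly missed the threshold (limma adjusted p = 0.0510) and was under 2-fold. The second GLI2 probe was well above background only in the SC arrays (12.4 and 19.3) and under the floor in all 6 lines. SC P5 was under the floor as well, and on values raised to the floor the log2 difference was -0.27. The probes of each gene are plotted side by side, on a scale on which levels of different probes are not comparable.

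**Figure D2:**
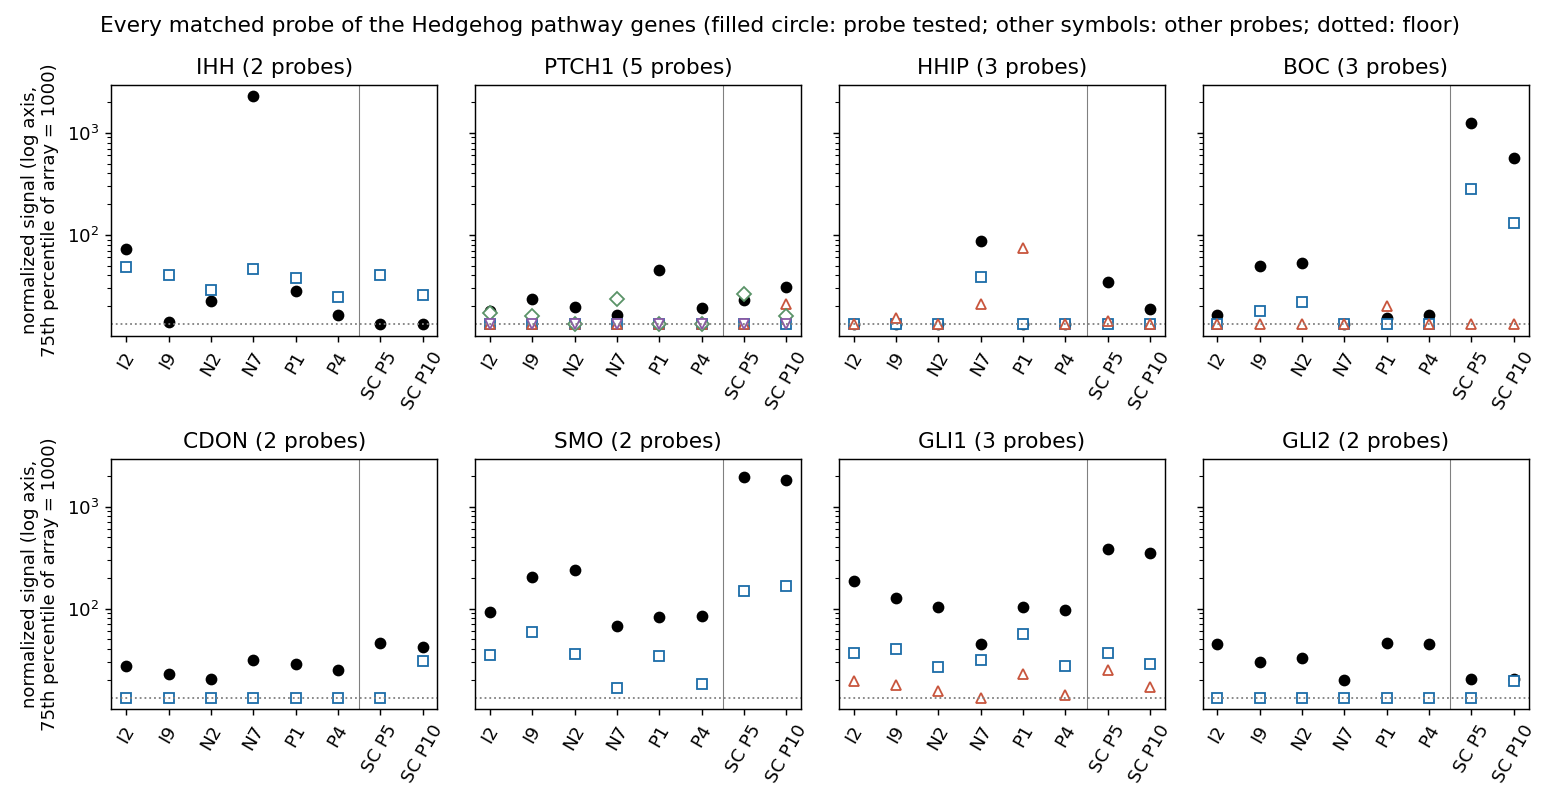
Normalized signal (log axis) of all 22 matched probes on the 8 arrays, 1 panel per gene, with the tested probe as filled circles, other probes as open symbols, and values under the floor of 13.3 (dotted) drawn at it. Both SMO probes and 2 of 3 BOC probes are higher in the SC arrays, to the right of the line, whereas only the brightest of 3 GLI1 probes is.

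Each embryo origin was then compared with the SCs on its own, with the SC arrays shared by the 3 comparisons. SMO was lower in IVP-eSLCs (-3.78), NT-eSLCs (-3.91) and PA-eSLCs (-4.51), with limma adjusted p of 0.00644, 0.00622 and 0.00321 and a standard error of 0.64 for each. BOC was lower by -4.88, -4.97 and -5.73 (adjusted p = 0.00654, 0.00665 and 0.00344, SE 0.83). The SMO and BOC calls of IVP- and NT-eSLCs were lost without SC P5, at differences of -4.39 to -3.74 (adjusted p = 0.0655 to 0.0746), and with the SC arrays as 1 sample (adjusted p = 0.0531 to 0.0631), and those of SMO also without SC P10 (adjusted p = 0.0614 and 0.0595). GLI1 was called lower in NT-eSLCs (-2.43, adjusted p = 0.00721) and PA-eSLCs (-1.88, adjusted p = 0.0153). With the methods' t-test after adjustment, 0 of the 8 genes were lower in IVP- and NT-eSLCs and 2 in PA-eSLCs. These counts are given without the share of all genes called for each origin, so they do not show a difference between origins. Without P1, P4, SC P5 or SC P10, or with the SC arrays as 1 sample, PA-eSLCs also lost a lower call. GLI1 itself lost its NT-eSLC call without SC P5, without SC P10 and with the SC arrays as 1 sample. In IVP-eSLCs it differed by -1.25 and did not pass (adjusted p = 0.0601), but it did in a fit on these 2 conditions alone (adjusted p = 0.0358) and without N2 or N7 (adjusted p = 0.0175 and 0.0153). In the authors' normalized table the direction turned for NT-eSLCs, where GLI1 was called higher (4.16, adjusted p = 0.00299). Calls toward lower signal therefore numbered 2 in IVP-eSLCs (14.6% of all genes), 3 in NT-eSLCs (14%) and 3 in PA-eSLCs (14.9%), and calls toward higher signal 0 (17.7%), 0 (15.8%) and 1 (20.3%).

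GLI2 was called higher in PA-eSLCs alone (1.14, SE 0.31, limma adjusted p = 0.0310). Its difference was 0.84 in IVP-eSLCs (adjusted p = 0.0811) and 0.31 in NT-eSLCs (adjusted p = 0.475). With the slide as a block its difference in PA-eSLCs was 0.96 and was not called (adjusted p = 0.0881). The call was also lost when P1, P4, SC P5 or SC P10 was left out, at differences of 1.12 to 1.16 (adjusted p = 0.110 to 0.131), and with quantile normalization (0.96, adjusted p = 0.0601) and the mean of probes (0.43, adjusted p = 0.145). CDON differed by -0.81, -0.79 and -0.71 in IVP-, NT- and PA-eSLCs and passed in none of them (adjusted p = 0.0579, 0.0652 and 0.0764). With the slide as a block CDON just reached a call in IVP-eSLCs, at 2-fold lower (adjusted p = 0.0435). By the 2-fold criterion without a test, SMO, BOC and GLI1 were lower for each origin (18.2%, 17.9% and 18.1% of the genes detected throughout either condition were lower in IVP-, NT- and PA-eSLCs), and IHH was higher in IVP- and NT-eSLCs and GLI2 in PA-eSLCs (23.2%, 22% and 25.7% were higher). For IHH the difference was 1.26, 4.09 and 0.70 (adjusted p = 0.662, 0.177 and 0.810), and the 2 lines of each origin lay above both SC arrays.

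**Figure D3:**
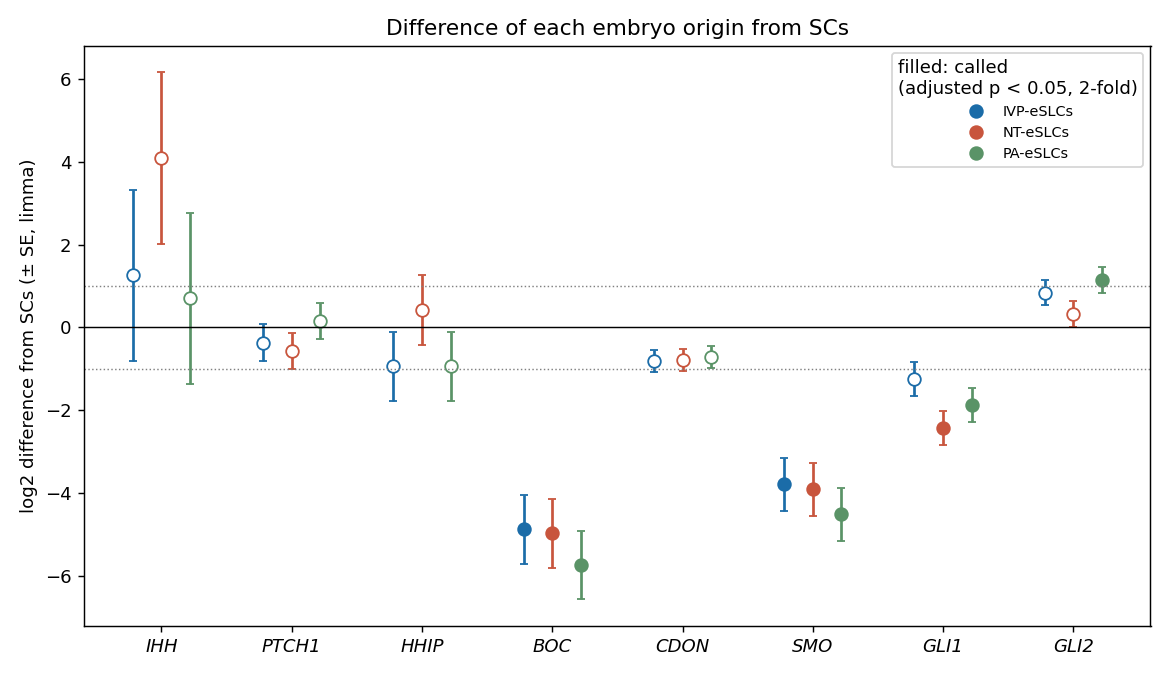
Log2 difference of IVP-, NT- and PA-eSLCs (2 lines each) from the 2 SC arrays for the 8 genes, with limma's standard error as bars, filled points for calls (adjusted p under 0.05 and 2-fold) and dotted lines at 2-fold. SMO and BOC are filled and below -3.7 for each origin, GLI1 for NT- and PA-eSLCs, and GLI2 is filled above 0 for PA-eSLCs.

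Between the origins, none of the 8 genes was called by limma, and none of all genes tested was either. An unadjusted p under 0.05 was found for 1 of the 8 genes between NT- and IVP-eSLCs (2.79% of all genes tested), for 0 between PA- and IVP-eSLCs (5.19%) and for 1 between PA- and NT-eSLCs (9.96%). The first was GLI1, at -1.18 in NT- against IVP-eSLCs (limma adjusted p = 1, 95% interval -2.20 to -0.16), whereas the authors' table gave the opposite direction for GLI1 (5.15, adjusted p = 0.00937). The second was GLI2, at 0.83 in PA- against NT-eSLCs (limma adjusted p = 0.502). The methods' t-test called 0 of the 8 genes in each of these 3 comparisons before or after adjustment. The share of all genes it called is not given here, so this count shows nothing particular to the 8 genes. By 2-fold and detection alone, GLI1 was lower and IHH higher in NT- than in IVP-eSLCs (3.34% lower and 2.36% higher of the genes detected), and IHH was lower in PA- than in NT-eSLCs (5% lower and 6.8% higher). None of the 8 genes met that criterion between PA- and IVP-eSLCs (2.82% lower and 2.42% higher). Both IVP lines lay on slide 1 and both PA lines on slide 2, so these lines alone do not separate origin from slide. For SMO the differences between origins ran from -0.73 to -0.12, and the interval of NT- against IVP-eSLCs was -1.69 to 1.45, which leaves room for a difference of more than 2-fold either way. For CDON the interval of the same comparison was narrower, -0.63 to 0.67.

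For 7 of the 8 genes the 6 lines varied more than for the median gene. The SD of log2 signal over the lines was 2.78 for IHH, 1.11 for HHIP, 0.91 for BOC, 0.76 for SMO and 0.67 for GLI1, and its median over all genes tested was 0.35. These values ranked at the percentiles 99.8, 93.5, 90.0, 85.6 and 81.7 of all genes tested. PTCH1 (0.54) and GLI2 (0.47) were nearer the middle, and CDON (0.23) ranked at percentile 24.2.

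On the tested probe, N7 stood at an extreme of the 6 lines for each of the 8 genes, as it did for 49% of all genes tested. It was the lowest line for SMO, PTCH1, GLI1, GLI2 and BOC and the highest for IHH, HHIP and CDON. Other probes did not all share this order, since N7 was the highest line on the other tested PTCH1 probe (23.3) and lay between other lines on 1 further probe each of GLI1 (31.2), HHIP (21.1) and IHH (46.7). N7 also stood apart for endoderm markers, whose summed signal was 137565 in N7, 6600 to 12366 in the other 5 lines and 17624 to 18677 in the SC arrays. The lipoprotein gene APOA1 alone gave 112600 in N7, and without it the sums were 24965 in N7, 5387 to 6576 in the other 5 lines and 12730 to 12987 in the SC arrays. HNF4A, a nuclear receptor of liver and gut epithelium, was at 9022 in N7 and at most 23.4 in the other lines, and GATA4 was at 2918 against at most 180. Of the 16 endoderm markers with a probe, 9 were highest in N7 and 3 (AFP, TTR and CDX1) were lowest there, and the 4 markers GATA6, FOXA2, SOX7 and APOB had no matched probe. What part the endoderm marker difference has in the IHH and HHIP signals was not tested. I9 and N2 were the highest pair for both SMO and BOC, and the fibroblast marker sums were also highest in these lines (12603 and 12498). The next sum was that of P4 (10878), whose SMO and BOC signals were as low as those of the remaining lines. Whether this moved the SMO and BOC values was not tested.

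The pathway was next read through other genes that act in it. Outside the 8 genes, 42 further pathway genes were listed, 31 had a probe and 30 were tested, of which 6 were lower (20%, against 15.7% of all genes) and 3 higher (10%, against 19.7%) in eSLCs. Of the 6 lower genes, GPR161, GRK3 and PRKACB were not well above background in 5, 5 and 3 of the 6 lines, and a filter on all 8 arrays leaves 3 lower genes. Their median log2 difference was -0.25, against 0.23 over all genes. SHH and DHH, the other ligands, had no matched probe. DISP1, which releases lipid-bearing ligand from the cell, ranged from 157 to 556 in the lines and was 377 and 388 in the SC arrays, and its difference of -0.40 was not called (limma adjusted p = 0.384).

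Among 14 transducers and GLI factors tested, 5 were lower (35.7%, against 15.7% of all genes) and 2 higher (14.3%, against 19.7%), with a median of -0.24. EVC2 and EVC form a complex at the base of the cilium that relays the signal of Smoothened. EVC2 gave 15.5 to 44.1 in the lines and 178 and 164 in the SC arrays (log2 difference -2.67, limma adjusted p = 0.00295), and EVC gave 21.9 to 45.0 against 136 and 116 (-1.93, adjusted p = 0.00112). The groups overlapped for neither gene, although the 3 EVC2 probes ranged from -3.03 to -0.31.

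SPOP, a ubiquitin ligase adaptor that marks GLI proteins for degradation, was at 151 to 320 in the lines and at 945 and 1549 in the SC arrays (-2.41, limma adjusted p = 0.00169). GPR161, a ciliary receptor that restrains the pathway, was at 54.9 and 44.8 in the SC arrays and under the floor in all 6 lines (2.60 to 9.98), and was named after its values were seen. Its call therefore compares the SC arrays with the floor, and it was at least 3.73-fold lower in the lines. The arrestins ARRB1 and ARRB2, which bind active Smoothened among many receptors, were higher by 1.67 and 1.65 (adjusted p = 0.0394 and 0.0277). SUFU, the main inhibitor of the GLI proteins, gave 60.8 to 183 in the lines and 146 and 130 in the SC arrays, with a difference of -0.17 (adjusted p = 0.726).

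Of 16 kinases and ubiquitin ligases tested, 2 were lower (12.5%) and 1 higher (6.25%), both shares under those of all genes tested (15.7% and 19.7%), with a median of -0.09. GRK3, a receptor kinase, was at 20.3 in I2, under the floor in the other 5 lines, and at 196 and 149 in the SC arrays, so that the lower SC array was 7.34 times the highest line. PRKACB, a catalytic subunit of protein kinase A, which holds GLI proteins in check, was at 17.1 in P1, under the floor in the other 5 lines, and at 40.8 and 54.0 in the SC arrays, the lower of which was 2.39 times the highest line. The calls of GRK3 and PRKACB thus rest largely on the floor. CSNK1D, a casein kinase that phosphorylates GLI proteins and Smoothened, was higher by 1.61 (limma adjusted p = 0.00116), and its 4 probes ranged from -0.86 to 1.61.

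Of 13 tested genes known from other tissues as Hedgehog targets, 6 were lower (46.2%, against 15.7% of all genes) and 1 was higher (7.69%, against 19.7%) in eSLCs, with a median of -0.54. BCL2, an inhibitor of apoptosis, gave 9.67 to 45.7 in the lines and 2026 and 1292 in the SC arrays (-6.13, limma adjusted p = 2.4e-04). GREM1, a secreted BMP antagonist, gave 18.9 to 60.2 against 603 and 714 (-4.43, adjusted p = 0.00109), and CCND1, the G1 cyclin D1, gave 1579 to 3543 against 18104 and 21955 (-3.19, adjusted p = 1.0e-04). The lines lay below both SC arrays for each of these.

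Besides GLI1, the remaining lower targets were BMP4 (-2.89) and SNAI1 (-1.44), named after their values were seen. In the authors' normalized table, scaled in the same way, 1 of the 3 BMP4 probes went the other way, with 217 to 728 in the lines and 91.2 and 147 in the SC arrays, whereas the other 2 were lower in the lines. CCNE1, the G1/S cyclin E1, was higher (1.67, limma adjusted p = 0.0168). PTCH1 and HHIP, the targets most closely tied to the pathway, were not called. These genes respond to several pathways, and GREM1, BMP4 and SNAI1 are also expressed by mesenchymal cells, whose markers differed between the groups as given above. The part of that difference was not tested.

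The primary cilium, the organelle in which Smoothened acts, was represented by 29 genes tested, of which 13 were lower and 0 higher in eSLCs (median -0.94). Lower calls thus made up 44.8% of this list and 15.7% of all genes. IFT122, a subunit of the retrograde intraflagellar transport complex, was at 206 to 313 in the lines and at 3298 and 3181 in the SC arrays (-3.67, limma adjusted p = 6.2e-05). IFT81 and IFT74, partners that carry tubulin along the cilium, were lower by -3.49 and -2.43 (adjusted p = 6.3e-04 and 0.0196). The lines lay below both SC arrays for all of these 3 genes.

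**Figure D4:**
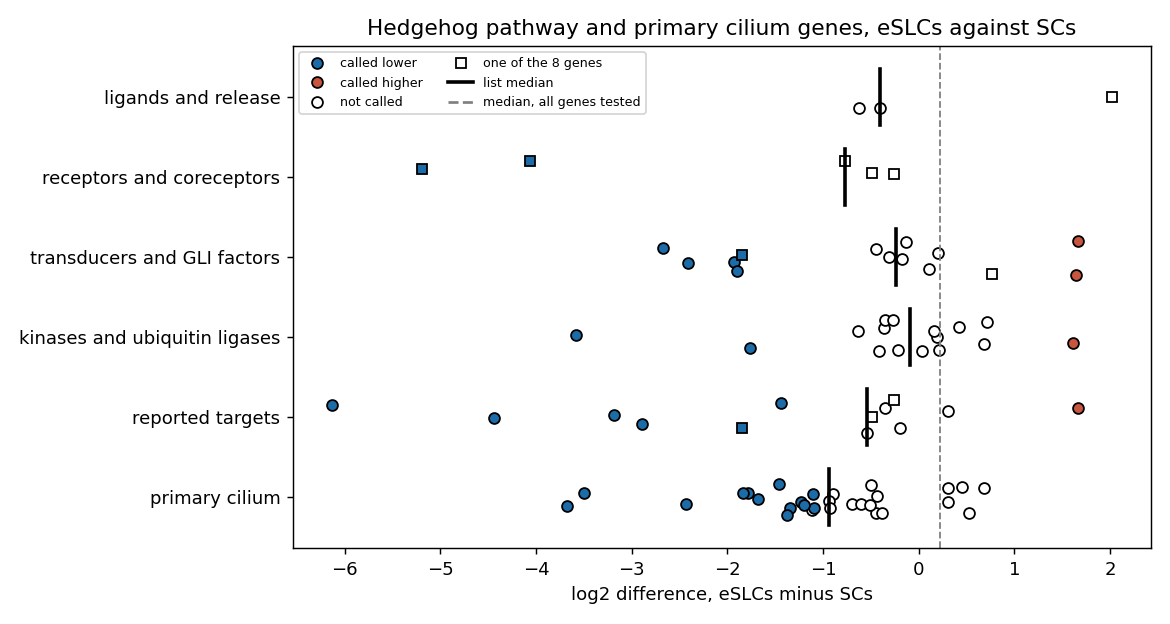
Log2 difference, eSLCs minus SCs, of each tested gene of 6 lists (squares mark the 8 named genes, which can stand in more than 1 list), with calls lower in blue and higher in red, list medians as black bars and the median of all genes tested (0.23) dashed. The median of each list lies to the left of the dashed line, and that of the primary cilium list lies at -0.94.

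Genes commonly used as references were mostly not called. Of 15 housekeeping genes, 0 were lower and 1, PGK1, was higher (1.17, limma adjusted p = 0.0173). Their median of 0.29 was near that of all genes tested.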

How the data were processed

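RNA of 8 bovine cell samples was hybridized to 1-colour Agilent arrays designed on UMD 3.1. The authors scanned them with Feature Extraction 11.5.1.1 and normalized the data in GeneSpring GX. The deposited scanner output holds linear signal intensities, and the deposited table of the series holds 1 normalized intensity per probe and array, with scale and centring not given in the sources used here. The processed signal of 6 scanner files ranked probes unlike the background-subtracted signal of the same rows (Spearman 0.161 to 0.217 across probes), so the background-subtracted signal was used.

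Control spots and outlier spots (0 to 5 per array) were left out. Each array was divided by its 75th percentile, set to 1000, a value 75.3 to 136 times the array's dimmest spot above background. A floor of 13.3 was applied and log2 taken. Of 43653 probes, 26743 matched a RefSeq gene by accession (names only), and 8164 genes had more than 1 probe. Each gene was represented by its brightest probe over all arrays. Testing was limited to genes well above background throughout some condition, and used limma 3.58.1 in R 4.3.3 (4 condition means, 8 arrays, Benjamini-Hochberg). eSLCs against SCs compares the mean of the 3 origins with the SCs. Simulated data with 200 of 10950 genes changed 4-fold gave 69.5% of them back for eSLCs against SCs and 41% to 57.5% for the other comparisons, with 0 wrong signs.

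Slide 1 carried SC P5 with both IVP lines and N7, and slide 2 carried SC P10 with both PA lines and N2. The genes and lists were chosen with earlier results of these data known. The text names all 10 genes and, from each list, up to 3 largest rises and falls among the calls. DISP1, SUFU, GPR161, BMP4 and SNAI1 were added after their values were seen, and marker and reference genes are named as examples. Alternatives covered scaling, background correction, signal column, filter, probe choice, floor, SC arrays as 1 sample, slide, the methods' t-test and leaving out each array. Figures were drawn with matplotlib 3.10.9 in Python 3.11.15.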

Additional observations from a re-analysis of the deposited data

Results flagged for a closer look

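In 3 of the 8 genes, 1 line lay far from the other 5 eSLC lines by Dixon's ratio (gap to the nearest line over the whole range of log2 signals) that exceeded its 95% critical value, which chance exceeds in about 1 of 20 groups. A line lay as far apart for 7.95% of all genes tested. For IHH the line was N7, with a ratio of 0.679. For HHIP it was again N7, with a ratio of 1 because the other 5 lines were at the floor. For PTCH1 it was P1, with a ratio of 0.645.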

How the results depend on the processing

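SMO and BOC were lower in eSLCs than in SCs in all of the alternatives planned, with log2 differences of -4.37 to -1.22 for SMO and -5.95 to -2.92 for BOC. The calls were lost for both within slide 1 and within slide 2, and for SMO with the processed signal (-1.22). GLI1 also lost its call with the mean of its probes (-0.68, limma adjusted p = 0.0516) and with the SC arrays as 1 sample (-1.85, adjusted p = 0.0697).

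Signs reversed with the processed signal for GLI1 (1.47), PTCH1 (0.13) and IHH (-1.64), with the authors' table for GLI1 (0.88), with the mean of probes for HHIP (0.088), with a floor 4 times as high for HHIP (0.12), and on single other probes of GLI1 (0.11), GLI2 (-0.27, with all 6 lines at the floor) and HHIP (0.50), a check chosen after seeing the data. The causes were not tested.

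For eSLCs against SCs, the count of lower genes fell from 3 to 1 with the processed signal, to 0 within slide 1 and to 1 within slide 2. The higher count rose from 0 to 1 by the 2-fold criterion without a test. Apart from that criterion, the share of all genes called under each setting is not given, here or for the leave-one-out counts below. These changes therefore do not show whether the 8 genes gained or lost calls more than other genes did. For IVP-eSLCs, lower genes went from 2 to 1 with the processed signal and to 0 with the SC arrays as 1 sample or with the adjusted methods' t-test. They rose to 3 with normexp (HHIP added), the slide as a block (CDON added), and, with GLI1 added, with the conditions compared alone, the unadjusted methods' t-test and the 2-fold criterion. The higher count went from 0 to 1 by the 2-fold criterion. For NT-eSLCs, lower genes went from 3 to 0 with the processed signal, with the SC arrays as 1 sample, and with the methods' t-test before and after adjustment. Higher genes went from 0 to 1 with the authors' table (GLI1) and by the 2-fold criterion. For PA-eSLCs, lower genes went from 3 to 1 with the processed signal, and the 1 higher gene was lost (0) with quantile normalization, normexp, the processed signal, the authors' table, the mean of probes, the higher floor, the SC arrays as 1 sample and the slide as a block. Between origins, the authors' table called 1 gene, GLI1, in NT- against IVP- (higher) and in PA- against NT-eSLCs (lower), and the 2-fold criterion 2 and 1. Of the other pathway genes, 6 were lower, 3 with a filter on all 8 arrays (which leaves out GPR161, GRK3 and PRKACB) and 0 with the processed signal. The 3 higher ones became 1 with no filter, with the higher floor and with the SC arrays as 1 sample, and 0 with the processed signal and within either slide.

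Leaving out 1 array at a time gave 2 to 3 lower and 0 to 1 higher genes for eSLCs, 0 to 3 lower for IVP-eSLCs, 0 to 4 lower and 0 to 2 higher for NT-eSLCs, 2 to 3 lower and 0 to 1 higher for PA-eSLCs, 0 called between origins, and 5 to 6 lower and 1 to 3 higher other pathway genes. The low counts of IVP- and NT-eSLCs came without SC P5 (0 and 0) and without SC P10 (1 and 1), and the higher counts of NT-eSLCs without N2 (2). A lone array is then assumed to vary like the other conditions.

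Normexp was run on the median signal, chosen after seeing the data, since no mean signal column was found in the files used here. A fit on the conditions compared alone is the same as the reported one for eSLCs against SCs. The sample titles name no pairs across the groups, so no paired analysis was run, and the slide served as a block instead. Signals of PTCH1, CDON, GLI2 and HHIP lay within a few times the floor, which limits the fold changes measurable for them.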

Other observations

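In the authors' normalized table, both SMO probes carry the same value in I2 and again in SC P5 (within 0.01%), although their scanner signals differ by 2.66-fold and 13.2-fold. The brightest GLI1 probe and another GLI1 probe also share a value in I2 and in SC P5, with scanner signals 9.54-fold and 15.3-fold apart. Over the 8164 genes with several probes, equal values occurred for 1795 genes in I2 and 1793 in SC P5 and for 0 to 50 genes in the other 6 arrays. The scanner signals themselves were equal for 0 to 3 genes per array.

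For the brightest GLI1 probe, scaled in the same way, that table gives 1128 in N2 and 319 in N7, 14.2 to 33.1 in the other 4 lines, and 26.7 and 42.1 in the SC arrays, whereas the scanner output gives 103 in N2, 45.1 in N7, 95.9 to 187 in the other lines and 384 and 349 in the SC arrays. For SMO and BOC the table and the scanner output both put the SC arrays above all 6 lines, although for BOC the table has SC P10 (2654) above SC P5 (1670) and the scanner output the reverse. For IHH both put N7 highest, at 3490 in the table.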
